A study of Mus musculus with 2 samples.

Results

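The genes described here are 39 immediate early, AP-1 and heat shock genes, chosen by symbol from the 32285 genes counted in both libraries, and all 39 were found once in each. They were read in 8 subgroups: 7 AP-1 genes, 3 Egr genes, 3 Nr4a genes, 5 genes of RNA decay, 6 feedback genes, 3 other early genes, 4 other transcription factors and 8 heat shock genes. The cells were live CD8 T cells, sorted as CD45+ TCRB+ CD8a+ from the 4th mammary fat pad of untreated C57BL/6 mice with no culture step. The parous group (mice labelled multiparous) and the virgin group each had 1 library, made with the 10x 5-prime kit from a pool of at least 5 mice. Parity, pool and library therefore cannot be told apart, no test between groups was possible, and every interval below is a 95% interval for counting error only.

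Immediate early genes are transcribed within minutes of a signal, without new protein synthesis, and in T cells the signal can be the T cell receptor, a cytokine or stress. Fos and Jun family proteins pair to form AP-1, Nr4a proteins are nuclear receptors that follow receptor signalling, and RNA decay factors and phosphatases of the same programme then shorten it. Heat shock genes encode chaperones that hold and refold proteins, and early genes and heat shock genes are both known to be induced when tissue is taken apart into single cells. The time and conditions of tissue handling are not given in the sources used here, and with 1 library per group handling and parity cannot be told apart.

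After the cell filter 3019 parous and 2511 virgin cells remained, of which 2992 and 2502 were taken as CD8 T cells, with 13283058 and 19944371 UMIs. These include a low-RNA cluster of 155 parous and 34 virgin cells, 72.0% of them with a UMI of Cd3e. A UMI (unique molecular identifier) marks 1 captured transcript. The median was 4107 UMIs per parous cell and 7002 per virgin cell, so shares of cells with a UMI are given after every cell was thinned to 1400 UMIs, with the unthinned share beside them. Without thinning, 95.1% of the parous CD8 T cells had a UMI of Cd3e, 79.9% of Cd8b1 and 0.368% of Cd4, and of the virgin ones 98.4%, 95.3% and 0.0799%. The 2 libraries had 18 cell barcodes in common. Mitochondrial genes took 1.09% of parous and 1.17% of virgin UMIs, and the 39 genes 1.79% and 1.68%. The level of Gm42418, which lies over ribosomal RNA, was 7444 CPM (UMIs per 1000000 UMIs) in parous and 11813 in virgin cells and that of AY036118 699 and 1360, and their part in the values below was not tested. The summed level of the 9 genes that mark NK or innate-like T cells was 854 CPM in parous and 132 in virgin cells. Fcer1g was the highest parous member at 383. Not all 9 were higher in parous cells: the lowest parous member was at 0.301 CPM and no virgin member was under 0.501. The part of those cells in the pooled values was not tested. The summed level of 5 fibroblast markers was 7.60 and 21.2 CPM, and that of 4 adipocyte markers 0.376 and 0.150. No cell type that should lack these 39 genes was in the sort, so the share of cells that free RNA alone would give was not measured.

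Over all CD8 T cells the 39 genes did not move as a block: 6 were at least 1.5-fold higher in the parous library (Fosl2, Crem, Atf3, Nr4a2, Nr4a3 and Btg2) and 3 at least 1.5-fold lower (Myc, Fos and Jun). Of all 12179 genes with at least 10 expected UMIs, 6.59% were that much higher and 14.2% that much lower. The median log2 ratio, parous over virgin, was 0.10 over the 39 genes and -0.14 over all measured genes. Scaling on the median gene would raise every ratio below by 0.13, which turns Jund, Egr1 and Hspe1 from just below 0 to just above it, and gives 9 genes at least 1.5-fold higher (Nr4a1, Ier2 and Dnaja1 in addition) and 2 lower (Fos and Myc). The 2 libraries also held different T cell states. The states that both filled were therefore also given the same mix in each library, weighting each state by the mean of its shares in the 2. Then 2 genes stayed at least 1.5-fold higher (Fosl2 and Crem) and 4 were lower (Fos, Myc, Hspa1a and Hspa1b). Fosl2, Crem, Fos and Myc were past 1.5-fold in the same direction in all 13 other ways of processing that were run. Not all of the 13 could have changed this. A different minimum of expected UMIs changes only which genes count as measured and leaves each ratio as it was. Adding 1 UMI to each count could hardly move genes with this many UMIs.

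**Figure D1:**
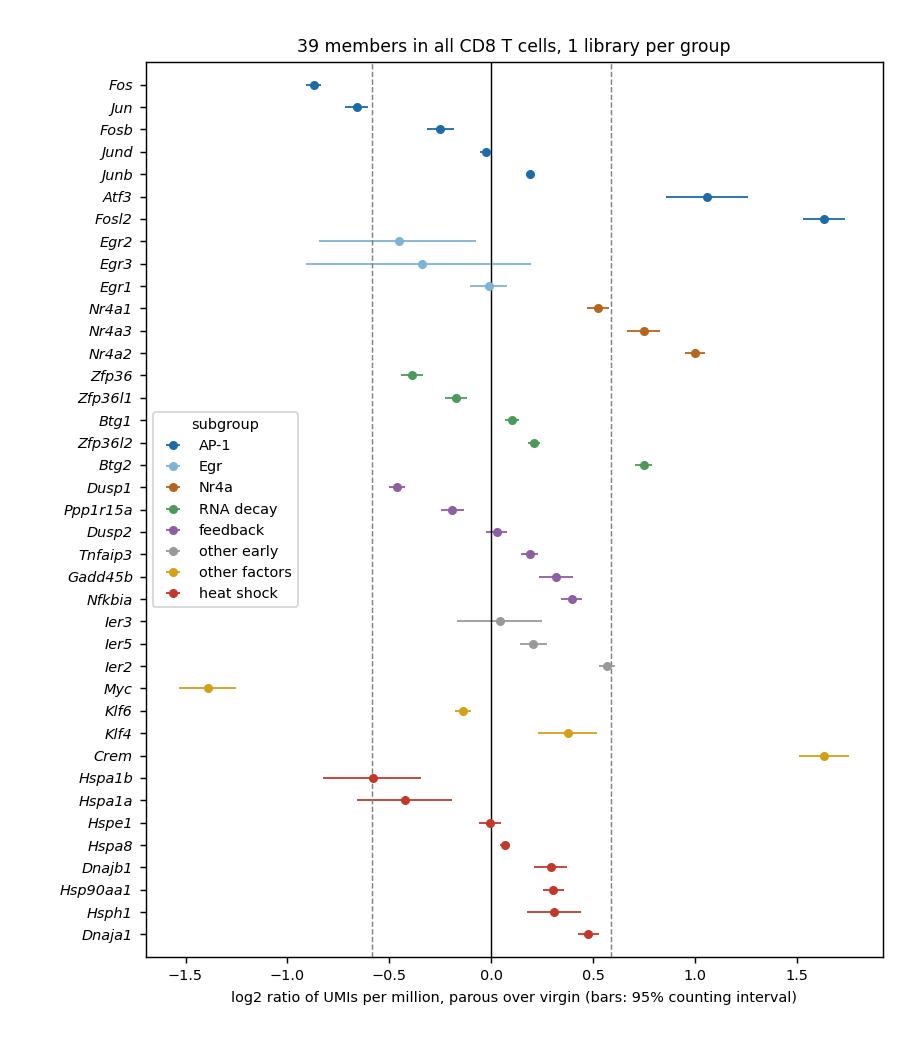
Log2 ratio of CPM, parous over virgin (x axis), for each of the 39 genes (y axis, grouped and coloured by subgroup), over all CD8 T cells. Points are the ratio of 1 library to 1 library, bars the 95% counting interval, and dashed lines 1.5-fold. Fosl2 and Crem stand farthest to the right at 1.63 each and Myc farthest to the left at -1.39.

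Within the AP-1 genes the Fos family split. Fos, the partner that gives AP-1 its fast component, was counted at 665 CPM (651 to 679) in the parous and 1216 (1201 to 1232) in the virgin library, a log2 ratio of -0.87 (-0.91 to -0.84). At 1400 UMIs per cell Fos was found in 48.0% of the parous cells against 66.4% in virgin (71.7% and 89.8% unthinned), and the cells that had one held 2.15 and 2.995 UMIs on average. Fos was thus lower both in the share of cells and in the level per positive cell. Fosl2, which encodes the later Fos family member Fra-2, went the other way at 172 CPM (165 to 179) against 55.4 (52.2 to 58.8), a log2 ratio of 1.63 (1.53 to 1.74). At matched depth 20.7% of parous cells held Fosl2, against 6.35% in virgin (44.7% and 27.5% unthinned). Fosb, a close relative of Fos, was at 211 and 251 CPM and stayed within 1.5-fold, with a log2 ratio of -0.25 (-0.32 to -0.18).

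The 250 bases upstream of the RefSeq start of Fos and of Fosl2 are shown because the counts of these relatives moved apart. GENCODE lists the Fosl2 gene from base 32135801, so its window lies inside that gene and bases before the earlier start were not read. They are RefSeq sequences of build GRCm38.p6, 5′ to 3′ on the gene's strand, at chr12:85473640-85473889 (+ strand) and chr5:32136222-32136471 (+ strand), with capitals for TGACG on either strand, the core of the cyclic AMP response element (CRE) that CREB and ATF family proteins bind.
Fos: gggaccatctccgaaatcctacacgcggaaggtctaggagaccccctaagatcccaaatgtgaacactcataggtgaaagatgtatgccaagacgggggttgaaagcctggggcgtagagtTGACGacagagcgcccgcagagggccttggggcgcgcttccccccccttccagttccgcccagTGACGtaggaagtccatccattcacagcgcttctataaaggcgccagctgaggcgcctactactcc
Fosl2: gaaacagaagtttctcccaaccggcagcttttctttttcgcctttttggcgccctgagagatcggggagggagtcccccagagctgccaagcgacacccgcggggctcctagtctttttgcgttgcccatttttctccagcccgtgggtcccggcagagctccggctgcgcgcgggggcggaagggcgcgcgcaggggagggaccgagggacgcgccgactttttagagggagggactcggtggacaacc
TGACG, or CGTCA for the other strand, was found at 2 places in the Fos sequence, 129 and 66 bases before the start, and at none in that of Fosl2, which says only that these letters are not in this window. Of 31 of the 39 genes with an entry in the table, 15 had TGACG in the window (48.4%), against 17.9% of all 27025 promoters of the same length, counting the first listed start of each gene. The 15 are Fos, Fosb, Junb, Atf3, Nr4a1, Nr4a2, Nr4a3, Btg1, Btg2, Dusp1, Tnfaip3, Ppp1r15a, Klf4, Dnajb1 and Hspe1. Egr1, Egr3, Ier2, Crem, Myc, Zfp36l2, Hspa8 and Hsp90aa1 had no entry. Of the genes with several listed starts, Egr2 is not among the 15 but held 2 matches at each of 3 later starts, and Tnfaip3 and Dnajb1 held none at their other start. The full AP-1 motif TGANTCA was in the windows of 2 of the 31 genes, Zfp36l1 and Tnfaip3, or 6.45%, against 6.87% of all promoters. Tnfaip3 held it only at its first listed start. A match is a run of letters and not a shown binding site.

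Among the Jun partners, Jun was at 273 CPM (264 to 282) in the parous and 431 (422 to 440) in the virgin library, a log2 ratio of -0.66 (-0.72 to -0.60). A Jun UMI was in 24.2% and 34.5% of cells at 1400 UMIs (43.6% and 60.9% unthinned). The pooled Jun value rests on 1 state: the naive or central memory-like cells held 68.7% of the virgin Jun UMIs and 30.4% of the parous ones, and without that cluster the log2 ratio was 0.11. Junb, the Jun relative seen in most cells, was at 2815 and 2469 CPM with a log2 ratio of 0.19 (0.17 to 0.21), and 90.7% and 86.9% of thinned cells had a UMI (97.6% and 97.4% unthinned). Jund, often described as the constitutive Jun protein, was at 1344 and 1369 CPM, a log2 ratio of -0.03 (-0.05 to 0.00). Atf3, a stress-induced partner of the ATF family, was counted at 36.5 CPM (33.3 to 39.9) against 17.6 (15.8 to 19.5), a log2 ratio of 1.06 (0.86 to 1.26). The 5 cells with most Atf3 held 12.8% of its parous and 16.9% of its virgin UMIs. With the same mix of shared states in both libraries its log2 ratio was 0.33. It was higher in 3 and lower in 2 of the 5 clusters where it was measured.

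**Figure D2:**
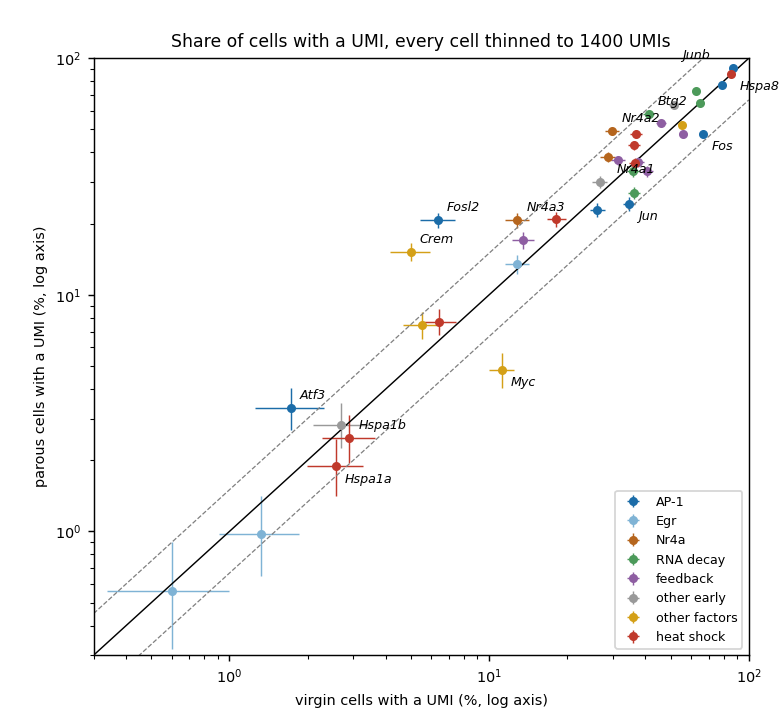
Share of CD8 T cells with at least 1 UMI of each gene after thinning every cell to 1400 UMIs, virgin on the x axis and parous on the y axis, both log axes in percent. Bars are exact 95% binomial intervals, the solid line marks equal shares and dashed lines 1.5-fold. Fosl2 (20.7% against 6.35%) and Crem (15.2% against 4.98%) lie farthest above the upper dashed line, Atf3, Nr4a2 and Nr4a3 also lie above it, and Myc (4.81% against 11.2%) lies below the lower one.

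The Egr genes, zinc finger factors that follow MAP kinase signalling, did not differ by 1.5-fold. Egr1 was at 119 CPM (113 to 125) in the parous and 120 (116 to 125) in the virgin library, and 13.5% and 12.8% of thinned cells had a UMI (27.3% and 37.1% unthinned). Egr2 was at 6.47 and 8.88 CPM and Egr3 at 3.31 and 4.21, both seen in under 1.5% of thinned cells, so that their log2 ratios of -0.45 (-0.84 to -0.07) and -0.34 (-0.91 to 0.20) are wide. A difference of 1.5-fold in Egr2 or Egr3 lies within those intervals and was not resolved at this depth.

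All 3 Nr4a genes were higher in the parous library. Nr4a1, which encodes the receptor Nur77 used as a reporter of T cell receptor signalling, was at 423 CPM (412 to 435) against 295 (287 to 302), a log2 ratio of 0.52 (0.47 to 0.58), which is under 1.5-fold. Nr4a2 was at 600 (587 to 613) against 300 (292 to 308), a log2 ratio of 1.0 (0.95 to 1.05), and Nr4a3 at 194 (187 to 202) against 116 (111 to 120), a log2 ratio of 0.75 (0.67 to 0.83). At 1400 UMIs per cell the share of cells with Nr4a2 was 49.0% in parous against 29.8% in virgin (72.1% and 60.7% unthinned), Nr4a1 in 38.3% and 28.6% (64.4% and 63.9%), and Nr4a3 in 20.7% and 12.8% (44.9% and 41.9%). At least 1 of the 3 was seen in all but 28.5% of parous and 46.8% of virgin thinned cells. With the same mix of shared states in both libraries the log2 ratios were 0.47 for Nr4a1, 0.58 for Nr4a2 and 0.38 for Nr4a3. The direction thus held, and Nr4a2 and Nr4a3 fell under 1.5-fold.

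The sequences upstream of the RefSeq starts of the Nr4a genes are shown because the 3 moved together. GENCODE lists Nr4a1 from base 101254269 and Nr4a3 from base 48045153. The Nr4a1 window therefore lies inside that gene, and the Nr4a3 window spans that listed start. They come from RefSeq, build GRCm38.p6, at chr15:101266596-101266845 (+ strand), chr2:57124004-57124253 (- strand) and chr4:48045055-48045304 (+ strand), 5′ to 3′ on the gene's strand, with TGACG on either strand in capitals.
Nr4a1: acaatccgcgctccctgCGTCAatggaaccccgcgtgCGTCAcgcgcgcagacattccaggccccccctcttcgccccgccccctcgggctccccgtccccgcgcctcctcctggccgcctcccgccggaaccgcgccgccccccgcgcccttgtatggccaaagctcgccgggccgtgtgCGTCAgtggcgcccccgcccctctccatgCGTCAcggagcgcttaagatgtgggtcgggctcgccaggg
Nr4a2: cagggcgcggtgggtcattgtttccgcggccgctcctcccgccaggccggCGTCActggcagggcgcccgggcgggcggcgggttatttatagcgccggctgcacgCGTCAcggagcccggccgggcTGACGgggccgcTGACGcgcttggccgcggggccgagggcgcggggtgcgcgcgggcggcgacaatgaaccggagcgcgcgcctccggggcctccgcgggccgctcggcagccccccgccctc
Nr4a3: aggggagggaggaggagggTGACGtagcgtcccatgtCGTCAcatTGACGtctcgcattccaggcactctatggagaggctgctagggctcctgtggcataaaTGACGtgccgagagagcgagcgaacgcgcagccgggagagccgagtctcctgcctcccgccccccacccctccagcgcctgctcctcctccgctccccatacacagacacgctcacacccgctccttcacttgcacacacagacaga
Each of the 3 windows held 4 matches to TGACG, at 233, 213, 69 and 40 bases before the start of Nr4a1, at 200, 144, 123 and 111 before Nr4a2 and at 231, 213, 205 and 147 before Nr4a3. Windows with at least 4 matches make up 0.152% of the 27025 promoters. Genes lower in parous cells held matches too, with 3 in the window of Dusp1 and 2 in that of Fos. Whether the matches bear on the counts was not tested. The motif AAAGGTCA, which Nr4a proteins themselves bind, was in none of these 3 windows and in 1 of the 31 genes' windows, that of Hspe1.

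The cyclic AMP response element modulator Crem, which encodes both activators and the early inducible repressor ICER, was at 125 CPM (119 to 132) in the parous and 40.5 (37.7 to 43.3) in the virgin library. Its log2 ratio was 1.63 (1.51 to 1.76), and 15.2% of thinned parous cells had a UMI against 4.98% in virgin (33.9% and 22.1% unthinned). Reads of the different Crem forms were not separated in the counts. Myc, the transcription factor that drives cell growth before division, was the gene of the set with the lowest pooled ratio, at 39.2 CPM (35.9 to 42.7) against 103 (98.4 to 107), a log2 ratio of -1.39 (-1.53 to -1.25). Myc was seen in 4.81% of thinned parous cells against 11.2% in virgin (12.4% and 33.1% unthinned). Of the Krüppel-like factors, Klf4 was at 54.9 and 42.3 CPM, a log2 ratio of 0.38 (0.23 to 0.52), and Klf6 at 634 and 698, a log2 ratio of -0.14 (-0.18 to -0.10).

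Of the RNA decay genes 1 of 5 passed 1.5-fold. Btg2, an antiproliferative protein that brings the CCR4-NOT deadenylase to messages, was at 725 CPM (710 to 739) against 432 (423 to 441), a log2 ratio of 0.75 (0.70 to 0.79), and was seen in 58.3% and 41.2% of thinned cells (85.7% and 83.3% unthinned). Its relative Btg1 was at 870 and 812 CPM, a log2 ratio of 0.10 (0.07 to 0.14). The Zfp36 family binds AU-rich elements of cytokine and early gene messages. Zfp36 itself was at 313 and 409 CPM, a log2 ratio of -0.39 (-0.44 to -0.33), Zfp36l1 at 319 and 360 with -0.17 (-0.23 to -0.12), and Zfp36l2 at 1173 and 1015 with 0.21 (0.18 to 0.24). None of these 4 differed by 1.5-fold, and Zfp36 was seen in 27.0% and 36.1% of thinned cells (50.8% and 73.5% unthinned).

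The 6 feedback genes all stayed within 1.5-fold over all cells. Dusp1, a phosphatase that switches off MAP kinases, was lower in parous cells at 581 CPM (568 to 594) against 801 (789 to 814), a log2 ratio of -0.46 (-0.50 to -0.43). Its position overlaps AC122252.1 on the same strand, so how reads were split between them is uncertain. Dusp2, a related phosphatase, was at 377 and 370 CPM. Nfkbia, which encodes the NF-kB inhibitor IκBα, was at 438 and 333, a log2 ratio of 0.40 (0.34 to 0.45), and Tnfaip3, which encodes the ubiquitin-editing inhibitor A20, at 572 and 503. Gadd45b, a stress sensor upstream of p38, was at 161 and 130, and Ppp1r15a, which helps restart translation after stress, at 301 and 344. The range of the log2 ratios over the 6 was thus -0.46 for Dusp1 to 0.40 for Nfkbia. Among the other early genes, Ier2 was at 821 and 554 CPM, a log2 ratio of 0.57 (0.53 to 0.61) that lies just inside 1.5-fold, Ier5 at 259 and 225, and Ier3 at 24.02 and 23.36.

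None of the 8 heat shock genes differed by 1.5-fold over all cells, and the pair Hspa1a and Hspa1b lay below 0 while most others lay above it. Hspa1b was just inside the limit, 1.49-fold lower in parous cells. Both were past 1.5-fold lower without clusters of 1 library and with the same mix of shared states. So was Hspa1b with a stricter cell filter and without the 2% of cells with most UMIs, and Hspa1a with every cell thinned to 1400 UMIs. Hspa1a and Hspa1b encode the same stress-inducible Hsp70 from near-identical copies, so the split of reads between them is uncertain. Hspa1a was at 17.3 CPM (15.1 to 19.7) in the parous and 23.2 (21.2 to 25.4) in the virgin library, and Hspa1b at 15.8 (13.7 to 18.1) and 23.7 (21.6 to 25.9), log2 ratios of -0.42 (-0.66 to -0.19) and -0.58 (-0.82 to -0.34). Few cells held them: 1.88% and 2.57% of thinned cells had an Hspa1a UMI (4.34% and 6.43% unthinned) and 2.48% and 2.89% an Hspa1b UMI (5.28% and 9.59%). Hspa8, the constitutive Hsc70, was at 1733 and 1655 CPM, with a log2 ratio of 0.07 (0.04 to 0.09). The co-chaperones Dnaja1 (474 and 341) and Dnajb1 (171 and 140) and the cytosolic Hsp90 gene Hsp90aa1 (417 and 338) had log2 ratios of 0.48, 0.29 and 0.30. Hsph1, which exchanges nucleotide on Hsp70, was at 62.2 and 50.2 with 0.31, and Hspe1, the mitochondrial co-chaperonin, at 343 and 344.

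The windows upstream of Hspa1a and Hspa1b are shown because the counts of these copies cannot be fully separated. They come from RefSeq, build GRCm38.p6, at chr17:34972157-34972406 (- strand) and chr17:34959239-34959488 (- strand), with capitals for GAANNTTC, a pair of inverted units of the heat shock element bound by HSF1.
Hspa1a: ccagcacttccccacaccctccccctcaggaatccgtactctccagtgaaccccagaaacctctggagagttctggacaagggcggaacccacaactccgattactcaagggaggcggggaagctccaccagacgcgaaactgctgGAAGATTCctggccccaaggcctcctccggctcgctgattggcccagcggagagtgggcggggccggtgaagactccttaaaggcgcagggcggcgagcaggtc
Hspa1b: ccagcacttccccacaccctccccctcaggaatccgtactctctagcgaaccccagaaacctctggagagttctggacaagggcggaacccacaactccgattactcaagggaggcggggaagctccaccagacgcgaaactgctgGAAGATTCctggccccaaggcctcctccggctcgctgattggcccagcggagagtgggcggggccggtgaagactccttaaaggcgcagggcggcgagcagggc
The 250 bases were the same at 247 positions (98.8%), and both held the match at 104 bases before the start. GAANNTTC was in 6 of the 31 windows (19.4%), those of Fosl2, Jun, Hspa1a, Hspa1b, Dnaja1 and Hspe1, against 6.78% of all promoters.

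The cells were clustered without the 39 genes, so the states below were not defined by them, and 7 clusters had at least 50 cells in both libraries. They are the naive or central memory-like cells (490 parous and 981 virgin), a cluster led by Rasgef1b, Ccr2, Eomes and Gzmk (393 and 675), one led by Gzmm with Rora (529 and 73), one with Klra6, Klra7 and Ikzf2 among its leading genes that held 4 NK or innate-like T markers (327 and 200), resident memory-like cells with Ccr8 and P2rx7 (148 and 121), circulating effector-like cells (73 and 175) and cycling cells (71 and 154). The resident memory-like cluster with Car2 and Cdh1 (453 and 25) and the cluster led by Gzmc with Fcer1g and Tyrobp (312 and 1) were nearly all parous and may be that library rather than a type. The low-RNA cluster (155 and 34) had a median of 1278 parous and 2451.5 virgin UMIs, with Fabp4, Selenop and Cst3 among its leading genes. Its Atf3 (169 CPM), Egr1 (426), Klf4 (118) and Myc (59.0) levels were the highest of the parous clusters with at least 50 cells. Without it the same genes were at least 1.5-fold apart over all cells. At a coarser clustering the low-RNA cluster (170 and 39) was named other cells, with myeloid markers. Over the 7 shared clusters 248 pairs of a gene and a cluster were measured, and 64 of them (25.8%) were at least 1.5-fold apart, beside 19.9% of all 47686 such pairs. Of the 30 genes measured in every shared cluster, 12 were higher in the parous cells of each (40%), against 8.8% of 3307 genes measured in all 7, and 2 were lower in each (6.67%), against 14.5%. The 12 are Fosl2, Crem, Nr4a1, Nr4a2, Nr4a3, Btg2, Nfkbia, Ier2, Ier5, Hsp90aa1, Dnajb1 and Dnaja1, and the 2 are Fos and Dusp1. At a finer clustering with 10 shared clusters, Nr4a1 was higher in 9 and Ier5 and Dnajb1 in 8, and with the 39 genes kept in the clustering Nfkbia was higher in 6 of 7. The other 8 of the 12, and Fos and Dusp1, kept their direction in every shared cluster of the 3 other clusterings.

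**Figure D3:**
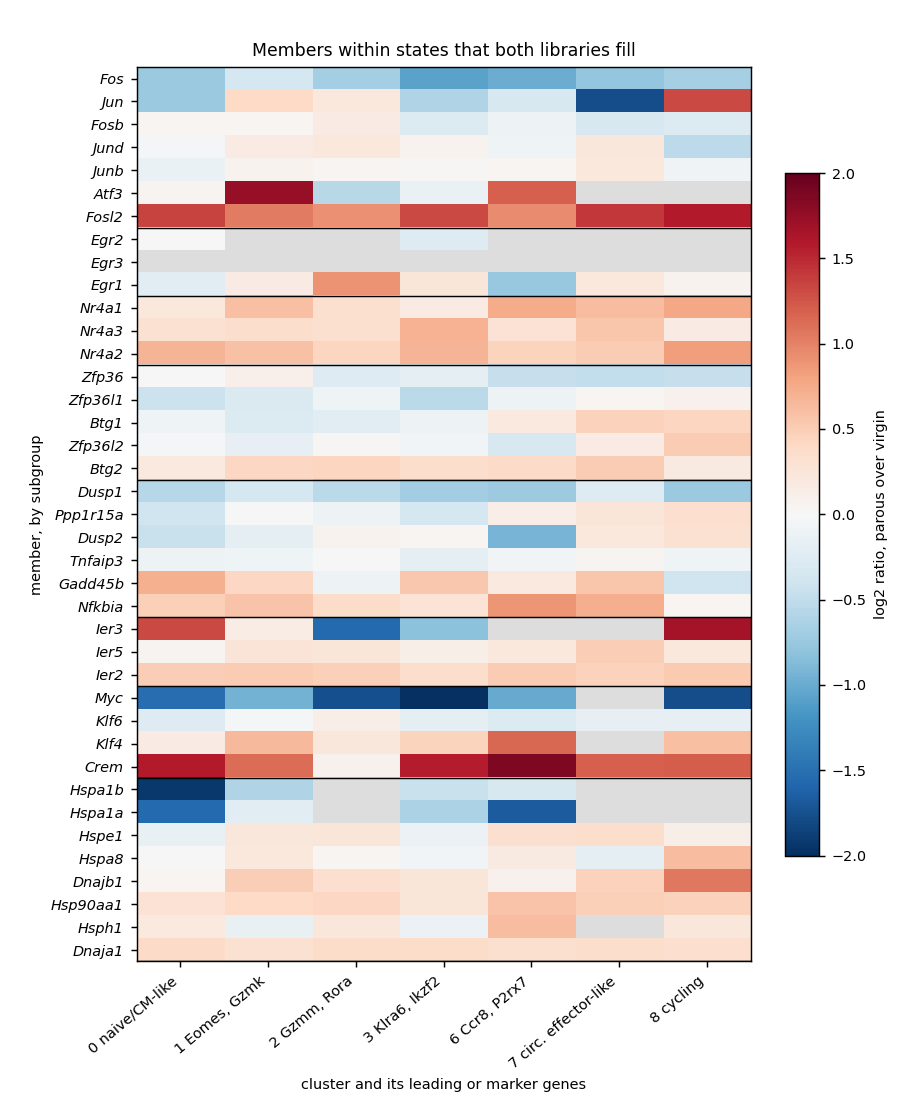
Log2 ratio of CPM, parous over virgin, for each gene (rows, by subgroup) in each of the 7 clusters that both libraries fill (columns). Red is higher in parous, blue is lower, and grey marks pairs with under 10 expected UMIs. The Fosl2 row is red throughout (0.92 to 1.59), the Fos row blue throughout (-1.07 to -0.36), and the Jun row changes colour from cluster to cluster.

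Fosl2 was at least 1.5-fold higher in parous cells in 7 of 7 clusters. Among naive or central memory-like cells it was at 122 CPM against 47.9, and 15.1% against 4.69% of thinned cells had a UMI (36.7% and 23.8% unthinned). The smallest log2 ratio was 0.92 in the Gzmm and Rora cluster (191.8 against 100.8) and the largest 1.59 in cycling cells (79.7 against 26.6). Crem was higher in all 7 and past 1.5-fold in 6. Its levels were 101.1 against 33.5 CPM in naive or central memory-like cells and 135 against 36.5 in the Ccr8 and P2rx7 cells, while in the Gzmm and Rora cluster they were 96.7 and 90.4. At a finer clustering the naive or central memory-like cells fell into 3 clusters that the libraries filled unequally (55 parous and 571 virgin cells, 136 and 351, and 298 and 67). Within these 3 the log2 ratios were 1.47 to 1.56 for Fosl2, 1.11 to 1.82 for Crem and -0.76 to -0.72 for Jun. Hspa1a and Hspa1b were measured in 1 of the 3, with -0.60 and -1.52. With all clusters together, 24.8% of parous cells with a Crem UMI also had Fosl2, against 19.9% of those without, at 1400 UMIs.

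Fos was lower in parous cells in 7 of 7 clusters and past 1.5-fold in 6, with 673 against 1125 CPM in naive or central memory-like cells, 618 against 1293 in the Klra6 and Ikzf2 cluster and 1054 against 2109 in the Ccr8 and P2rx7 cells. The exception was the Eomes and Gzmk cluster, at 1278 against 1636 (log2 ratio -0.36). Dusp1 was also lower in all 7, past 1.5-fold in 3, with 1187 against 1958 CPM in the Ccr8 and P2rx7 cells. With all clusters together, Dusp1 was seen more often in cells with a Fos UMI than in cells without: 54.5% of parous cells with Fos had Dusp1, against 41.9% of the rest, and 59.7% against 47.6% of virgin cells. This was not particular to Dusp1: in parous cells Jun was in 30.7% against 18.2% and Nr4a1 in 44.4% against 32.8%. The part of the cluster mix in these shares was not tested. Myc was lower in each of the 6 clusters where it was measured, past 1.5-fold in all 6, from 35.8 against 69.5 CPM in the Eomes and Gzmk cluster to 42.2 against 170 in the Klra6 and Ikzf2 cluster. Of the 521 parous Myc UMIs, cycling cells held 1.73% and the Ccr8 and P2rx7 cells 3.26%, so those values rest on few. With the 39 genes kept in the clustering Myc was past 1.5-fold in 4 of 6 clusters. At a coarser clustering it was in 4 of 5 and at a finer clustering in 8 of 9, and it was lower in all of them. In the circulating effector-like cells Myc had too few UMIs to be measured.

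**Figure D4:**
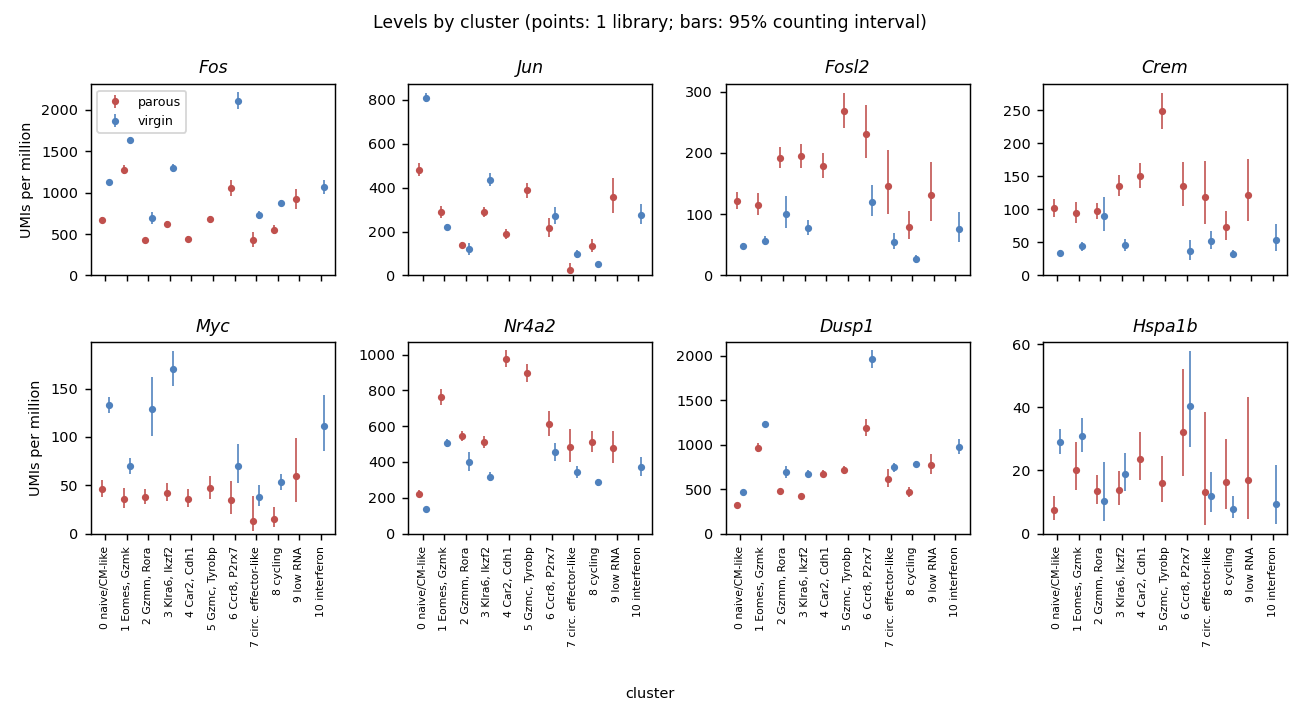
CPM (y axis, linear from 0) of 8 genes in each cluster (x axis) with at least 50 cells in that library, parous in red and virgin in blue. Points are 1 library each and bars exact 95% Poisson intervals. Fosl2 and Crem are higher in parous cells wherever both libraries have a point, Fos, Dusp1 and Myc lower, and Jun is highest in naive or central memory-like cells of both.

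The Nr4a genes were each higher in parous cells in all 7 shared clusters, past 1.5-fold in 4 for Nr4a1, 4 for Nr4a2 and 1 for Nr4a3. Nr4a2 was at 222 against 138 CPM in naive or central memory-like cells and at 512 against 287 in cycling cells. Naive or central memory-like cells had the lowest Nr4a1, Nr4a2 and Nr4a3 level of any cluster in both libraries. The highest parous Nr4a2 level, 976 CPM, was in the resident memory-like cells with Car2 and Cdh1, and the next, 896, in the Gzmc and Tyrobp cluster, which the virgin library did not fill. Btg2 ran the same way, higher in all 7 but under 1.5-fold in each (log2 ratios 0.17 to 0.51), with its parous levels of 1324 in the Ccr8 and P2rx7 cells and 1196 in the Gzmc and Tyrobp cluster above the rest. Without the clusters that only 1 library filled, the pooled log2 ratios were 0.75 for Nr4a2, 0.58 for Nr4a3 and 0.56 for Btg2, so that Nr4a3 and Btg2 fell just under 1.5-fold.

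Jun did not keep a direction. It was lower in parous naive or central memory-like cells (482 against 809 CPM), in the Klra6 and Ikzf2 cluster (288 against 435) and in circulating effector-like cells (26.4 against 97.8), and higher in cycling cells (133 against 53.5) and in the Eomes and Gzmk cluster (290 against 219). In both libraries naive or central memory-like cells had the highest Jun level of any cluster, 18.2-fold the lowest in parous and 15.1-fold the lowest in virgin cells. The lowest parous level was that of the 73 circulating effector-like cells. They held 0.166% of the 3624 parous Jun UMIs, so that level and its ratio rest on few UMIs. Whether these differences differ from each other was not tested. The whole AP-1 group summed to 5152 against 6100 CPM in naive or central memory-like cells and was highest in the Ccr8 and P2rx7 cells, at 7817 against 8788.

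Hspa1a and Hspa1b were lower in parous cells in each of the 4 clusters where they were measured. In naive or central memory-like cells Hspa1a was at 8.76 against 26.4 CPM and Hspa1b at 7.44 against 29.0, log2 ratios of -1.56 and -1.92. With the 39 genes kept in the clustering, and again at a finer clustering, Hspa1a was higher in 1 of 5 clusters, with log2 ratios of 0.65 and 0.87 there. Of the other chaperone genes, Dnaja1 was higher in all 7 clusters with log2 ratios of 0.30 to 0.38, Hsp90aa1 with 0.25 to 0.57 and Dnajb1 with 0.03 to 1.06. Hspa8 and Hspe1 were higher in 5 and lower in 2, and Hsph1 was higher in 4 and lower in 2 of the 6 where it was measured. The heat shock group summed to 4242 against 2909 CPM in cycling cells, where Hspa8 had its highest parous level at 2688. Cells of that cluster were the deepest, with a median of 7967 parous and 17583 virgin UMIs, and the part of depth in that value was not tested.

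**Figure D5:**
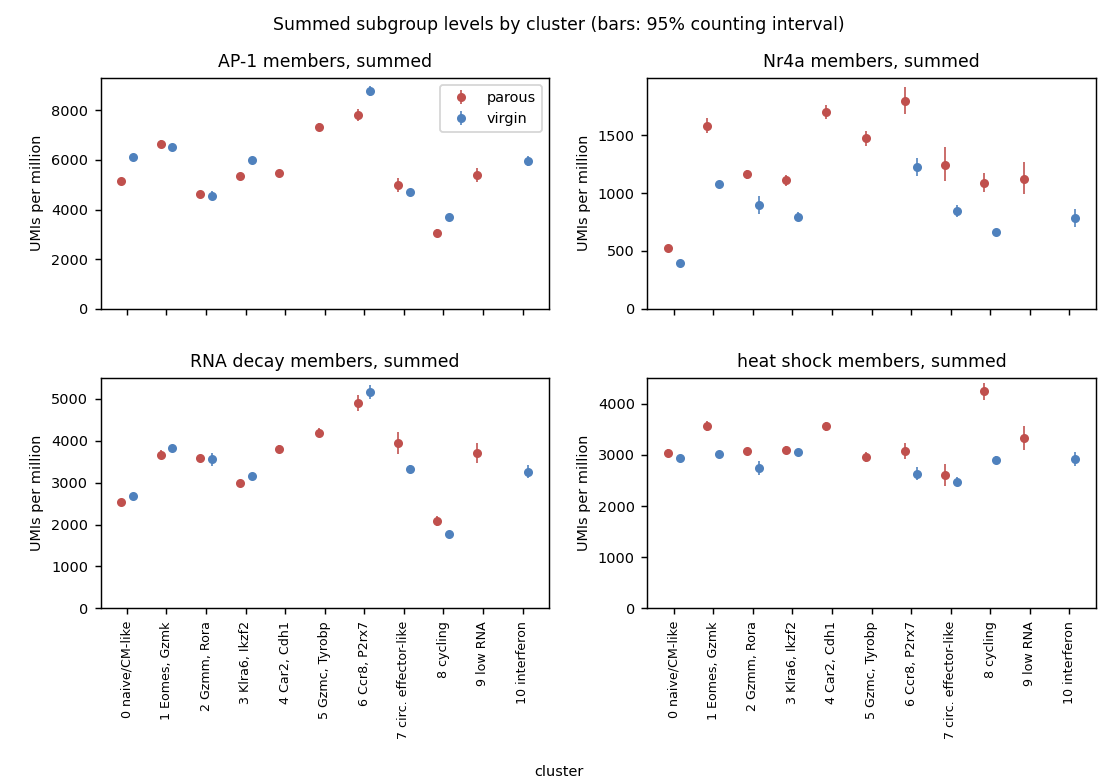
Summed CPM (y axis, linear from 0) of the AP-1, Nr4a, RNA decay and heat shock genes by cluster (x axis), parous in red and virgin in blue, with exact 95% Poisson intervals. Nr4a sums are lowest in naive or central memory-like cells (522.4 and 392.2) and higher in parous cells in every shared cluster, while AP-1 and RNA decay sums are close in most.

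Counting members at least 1.5-fold apart cluster by cluster, naive or central memory-like cells had 5 of 38 higher and 5 lower, where 3.46% and 13.5% of all measured genes were. The Eomes and Gzmk cluster had 6 of 37 higher and 2 lower (3.14% and 13% of all genes). In the Gzmm and Rora cluster 2 of 35 were higher and 3 lower (4.54% and 15.7%), and in the Klra6 and Ikzf2 cluster 4 of 38 higher and 6 lower (4.61% and 16.7%). The Ccr8 and P2rx7 cells had 7 of 36 higher and 6 lower (8.16% and 17.1%). Circulating effector-like cells had 4 of 30 higher and 2 lower (9.84% and 9.73%), and cycling cells 9 of 34 higher and 3 lower (8.25% and 13.9%). The share of members that were higher was thus above that of all genes in each of the 7 clusters, by least in the Gzmm and Rora cluster. There (2 of 35 beside 4.54%) and in circulating effector-like cells (4 of 30 beside 9.84%) it was close to that of all genes. The 7 clusters come from the same 2 libraries and are not 7 separate observations. The share that were lower was close to that of all genes in several clusters and above it in none.

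The number of members seen per cell was close between the libraries. At 1400 UMIs a cell held a median of 13 of the 39 genes in parous and 12 in virgin cells, and 60.1% of parous against 67.8% of virgin cells held at least 3 AP-1 genes. The tenth of cells with most UMIs of the 39 held 19.6% and 20.5% of them. By subgroup, the tenth with most held 78.8% and 80.7% of the Egr UMIs and 33.7% and 40.3% of the Nr4a UMIs. Across cells, Spearman's rho between the AP-1 and the feedback sums was 0.32 in parous (2867 cells) and 0.27 in virgin cells (2488), between AP-1 and Nr4a 0.25 and 0.21, and between AP-1 and heat shock 0.13 and 0.14. These are descriptions over cells that share a library.

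Other genes of the same pathways give the setting. Each pooled count here stands beside 6.59% of all measured genes at least 1.5-fold higher in parous cells and 14.2% lower. Of 26 other early response genes 10 were that much higher and 2 lower, with a median log2 ratio of 0.29. Within the shared clusters fewer were higher, and the medians were 0.07 to 0.22. The counts ran from 2 of 23 higher and 3 lower in the Klra6 and Ikzf2 cluster to 7 of 22 and 2 in cycling cells. Over all cells Cebpb, an inflammatory transcription factor, was at 320 against 129 CPM. The costimulatory receptor Tnfrsf9 was at 97.7 against 42.9 and the signalling brake Rgs1 at 520 against 269. Klf2, which keeps T cells circulating, was at 826 against 1709 and Id2 at 215 against 326. None of 19 NF-kB genes passed 1.5-fold in either direction over all cells. In cycling cells 6 of 17 were lower, beside 13.9% of all genes there. In each other shared cluster at most 3 were lower and at most 1 higher. Of 25 other AP-1, ATF and CREB genes measured 0 were higher and 3 lower, of 22 MAP kinase feedback genes 3 were higher and 3 lower, of 26 other RNA decay genes 1 and 1, and of 44 other chaperone and HSF1 genes 3 and 1. Among the feedback genes the phosphatase genes Dusp4 (27.3 against 13.6) and Dusp5 (681 against 432) and the inhibitor Spry2 (21.2 against 9.88) were higher, and Dusp6 (29.1 against 55.3) was lower. The genes whose level over 18 cluster and library units followed the AP-1 sum most closely, among 2838 genes, were 4932438A13Rik, Cbl and Ddx6 (Spearman's rho 0.81, 0.80 and 0.80), and for the heat shock sum Pde4d, Trmt112 and 2410006H16Rik (0.76, 0.72 and 0.71). The units share libraries, so these are descriptions.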

How the data were processed

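The authors deposited raw UMI counts per gene and barcode for 2 libraries, made with Cell Ranger 7.0.0 on mm10 per the submitters' processing notes. R 4.4.2 and Seurat appear there too, with no stated use, and cell-calling settings and strand use in counting are not given in the sources used here. Jun, Junb, Jund, Zfp36, Zfp36l2, Dusp1, Ppp1r15a, Crem, Hspa1a, Dnaja1 and Hspe1 overlap a counted gene on the other strand, so their split of reads is uncertain. The 39 genes and all lists were chosen with earlier results of these data known. From the deposited counts, barcodes were kept from 500 genes and 1000 UMIs upward with mitochondrial UMIs under 10%, which left out 1908 of 4927 parous and 15 of 2526 virgin barcodes. Doublet calling marked 0.0662% and 0.438% of cells and was taken not to have worked, so those cells were kept. Cells were clustered without the 39 genes or receptor, immunoglobulin, ribosomal and mitochondrial genes, after thinning virgin UMIs to 58.7% (scanpy 1.11.5, leidenalg 0.10.2, 2000 variable genes, 30 components, 15 neighbours, resolution 0.8). Clusters were named from marker lists, with at least 3 markers 2-fold above other cells.

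UMIs were summed per library or cluster and scaled to CPM (per 1000000), and log2 ratios had 0.5 added to each count. A gene was measured with at least 10 expected UMIs in the smaller library. Intervals are exact Poisson, conditional binomial or Clopper-Pearson intervals. For shares, cells were thinned to 1400 UMIs, which left out 125 parous and 14 virgin cells. Scripts were tested on simulated data. Values in full were given for AP-1, Nr4a, Egr, RNA decay and heat shock genes and any gene 1.5-fold apart, and for other lists at most the 3 largest and 3 smallest past 1.5-fold with 20 CPM. Alternatives covered scaling, filters, depth, state mix and clustering. Promoters are windows of 250 bases upstream of RefSeq starts. Gene positions are from GENCODE vM21, where the start can differ.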

Additional observations from a re-analysis of the deposited data

Results flagged for a closer look

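Some genes were at least 1.5-fold higher in parous cells of 1 cluster and at least 1.5-fold lower in another, and these differences between clusters were not tested. The log2 ratio of Jun was 1.32 in cycling cells, -0.75 in naive or central memory-like cells, -0.59 in the Klra6 and Ikzf2 cluster and -1.78 in circulating effector-like cells. The last rests on few UMIs, as those parous cells held 0.166% of the parous Jun UMIs. The log2 ratio of Egr1 was 0.90 in the Gzmm and Rora cluster (112 against 59.1 CPM) and -0.75 in the Ccr8 and P2rx7 cells (153 against 258). The log2 ratio of Ier3 was 1.32 in naive or central memory-like cells, 1.66 in cycling cells and -1.56 in the Gzmm and Rora cluster, all at levels under 50 CPM.

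The parous barcodes that the cell filter left out also carried the 39 genes, which took 1.79% of their 1217957 UMIs, the same share as in the kept cells. Of those 1908 barcodes 915 had a Cd3e UMI. Fos was at 673 CPM in them, beside 665 in the kept parous cells.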

How the results depend on the processing

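Pooled ratios were recomputed under 13 alternatives, shares at 3 other depths and cluster ratios under 4 alternatives, while co-detection, correlations and promoter counts were computed once. The alternative without the naive or central memory-like cluster was chosen after seeing the data. In the main processing the median log2 ratios over all CD8 T cells were -0.03 for AP-1, 0.75 for Nr4a, 0.10 for RNA decay and 0.18 for heat shock genes. Median-of-ratios scaling gave median log2 ratios of 0.10 for AP-1, 0.88 for Nr4a, 0.23 for RNA decay and 0.31 for heat shock genes, and a total without ribosomal, mitochondrial and member genes 0.0124 for AP-1 and 0.139 for RNA decay. RNA decay was at 0.0164 with every cell thinned to 1400 UMIs and at 0.0577 without the 2% of cells with most UMIs. Without clusters of 1 library 5 genes were at least 1.5-fold lower, Nr4a was at 0.58 and RNA decay at -0.00045. With the same mix of shared states 2 genes were at least 1.5-fold higher, and Nr4a was at 0.47, RNA decay at -0.0843 and heat shock at 0.0919. Without the naive or central memory-like cluster AP-1 was at 0.11, Nr4a at 0.65, RNA decay at 0.0326 and heat shock at 0.23, and the log2 ratio of Jun turned to 0.11. At a clustering resolution of 1.2, 107 pairs of a gene and a cluster were at least 1.5-fold apart, of 348 over 10 clusters, beside 64 of 248 over 7 as reported. The causes were not tested. No paired analysis was possible because each group is 1 library. With 1 library per group, counting intervals leave out the spread between mice, which was not measured.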
